A study of Mus musculus with 96 samples.

Results

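The genes described here are 7 ubiquitin ligase genes linked to muscle atrophy (Fbxo32, Trim63, Klhl38, Fbxo21, Fbxo30, Fbxo31 and Fbxo40), the gene for myostatin (Mstn) and the gene for a brake on translation (Eif4ebp1). They were listed by name, and each name matched 1 gene, so the set is 9 of the 56748 genes in the count table.

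The counts come from RNA-seq of skeletal muscle, liver and cerebral cortex of mice fed ad libitum (AL) or on intermittent fasting (IF). Male C57BL/6 mice entered these schedules at 6 weeks of age and were kept on them for 4 months. Mice 1 to 8 were on AL and mice 9 to 16 on IF. Those on IF had no food for 16 h of each day. By the study's text they were sampled as this daily fast ended, while AL mice had free access to food. The last fast and the 4 months of the schedule therefore cannot be told apart in these mice. Mice 25 to 32 (AL) and 33 to 40 (IF) are labelled female. The study's text gives neither their age, nor the hours and length of their schedule, nor when they were sampled. Each group held 8 mice, whose number names 1 library in each tissue, and the labels name no transgene or drug. Sex and set of mice cannot be told apart here, so the sets are named by mouse number. The libraries used held between 26097314 and 49838004 counted reads.

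The labelled tissues carried their defining markers. The 7 genes marking skeletal muscle fibres summed to at least 107600 CPM (a gene's counts divided by the library's total and scaled so that every library sums to the same round total, with 1 CPM being 1 ppm of the counts) in every muscle library and to at most 9.45 CPM in every liver library. The 5 hepatocyte genes summed to at least 40020 CPM in every liver library, and the 5 neuronal genes to at least 4923 CPM in every cortex library. One library went against its label. The cortex library of AL mouse 1 is labelled male but held 213 CPM of Xist and no reads of 4 genes on the Y chromosome, whereas the other 95 libraries matched their labelled sex. It was omitted, which leaves 7 AL mice in cortex of mice 1-16, and the cortex result is also given with it.

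Ubiquitin ligases choose the proteins that are tagged with ubiquitin and sent to the proteasome, and muscle that wastes in fasting, disuse or illness is known to raise the transcripts of several of them through FoxO factors and glucocorticoids. Myostatin is a secreted member of the TGF-beta family that restrains muscle mass through activin receptors. The product of Eif4ebp1 binds the cap-binding protein eIF4E and holds back translation until the kinase complex mTORC1 phosphorylates it.

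The members differed widely in level within muscle. Levels of different genes are compared per kilobase of gene length (CPM per kb, mean over mice). In AL muscle of mice 1-16, Trim63 stood highest at 73.1 CPM per kb, followed by Fbxo40 at 61.8, Fbxo32 at 36.1, Eif4ebp1 at 31.5, Fbxo31 at 29.4, Mstn at 14.8, Klhl38 at 3.14, Fbxo21 at 2.20 and Fbxo30 at 1.67. Neighbours in this order whose ranges over mice overlapped were Trim63 and Fbxo40, Fbxo32 and Eif4ebp1, Eif4ebp1 and Fbxo31, and Klhl38 and Fbxo21. In IF muscle of the same mice Fbxo32 (89.0 CPM per kb) stood above Fbxo40 (60.1) in all 8 libraries, and the remaining order was unchanged. In mice 25-40, under both diets, Fbxo31 stood above Fbxo32 with overlapping ranges and above Eif4ebp1 without overlap. The order was otherwise that of AL mice 1-16.

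Fbxo32, Trim63, Klhl38, Fbxo40 and Mstn were far higher in muscle than in the other tissues. Mstn had no read in any of the 32 liver libraries, so its AL mean in muscle was at least 3768-fold the liver level in mice 1-16, taking 3 counts over the whole group as the floor of what could have been seen. Its AL mean in muscle was 396-fold that in cortex in mice 1-16 and 710-fold in mice 25-40. Klhl38, with no read in AL liver of mice 1-16, was at least 653-fold higher in muscle by the same floor and 31.8-fold higher than in cortex, while in mice 25-40 it was 196-fold and 54.7-fold higher. Fbxo40 in AL muscle of mice 1-16 was 571-fold the liver mean and 2670-fold the cortex mean, the latter 1465-fold in mice 25-40. Trim63 had 5 reads in all 8 AL liver libraries together and 28 in the 7 of cortex, against 59793 in muscle. Fbxo32 was 132-fold higher in muscle than in liver of mice 1-16 (83.3-fold in mice 25-40) and 16.2-fold higher than in cortex. The other members were broadly present. Fbxo21 was lower in muscle than in liver (0.167-fold) and cortex (0.110-fold) with no overlap, whereas Fbxo31 in muscle and cortex overlapped.

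Fbxo32, also called atrogin-1, encodes the F-box subunit that lets an SCF ligase recognize its targets in wasting muscle. In muscle of mice 1-16 it ran from 185 to 359 CPM with a median of 243 under AL, and from 389 to 765 CPM with a median of 628 under IF. All 8 IF libraries lay above all 8 AL libraries, with IF mouse 10 lowest and IF mouse 14 highest of the IF group. The log2 fold change, which is positive where IF is higher, was 1.23 with a standard error (SE) of 0.16. Its adjusted p of 4.82e-05 follows Benjamini and Hochberg over all genes tested, and a gene was called where this p was under 0.05.

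Trim63 encodes MuRF1, a RING ligase that acts on proteins of the sarcomere. It held a narrow AL range, from 188 to 247 CPM with a median of 204.5, and a wide IF range, from 262 to 802 CPM with a median of 422.5. The groups did not overlap, and IF mouse 10 was again lowest while mouse 16 was highest. Trim63 rose by 1.14 on the log2 scale (SE 0.18, adjusted p = 3.22e-04).

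Klhl38 encodes a kelch-like protein, of a family whose members pair with a cullin to form ligases. It showed the largest difference of the 9 members in muscle. AL libraries of mice 1-16 held 4.20 to 10.7 CPM (median 6.70) and IF libraries 16.2 to 26.9 CPM (median 23.9). No IF library fell within the AL range, and mouse 10 was once more the lowest IF library. The rise was 1.67 on the log2 scale (SE 0.16, adjusted p = 1.40e-06), a 3.17-fold difference.

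Fbxo21 encodes another F-box subunit and is known to rise in denervated muscle. AL libraries lay close together between 11.2 and 14.5 CPM (median 11.8), and IF libraries between 19.0 and 44.9 CPM (median 27.7). The groups did not overlap, and the order of the IF mice was not that of Fbxo32: mouse 12 was highest and mouse 11 lowest. Fbxo21 rose by 1.15 on the log2 scale (SE 0.13, adjusted p = 4.75e-06). Without the 4 IF libraries richest in adipocyte markers, described below, the difference was 0.82 and still called.

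Fbxo40, which encodes a muscle F-box protein known to target the insulin receptor substrate Irs1, held 294 to 378.5 CPM under AL and 276 to 368 CPM under IF, with 3 of 8 IF libraries above the AL median. Its log2 fold change was -0.11 (95% confidence interval -0.23 to 0.01, adjusted p = 0.216). Fbxo31, whose F-box protein is known to act on cell cycle proteins, held 145 to 178 CPM under AL and 149 to 179.5 CPM under IF, with 4 of 8 IF libraries above the AL median. Its interval ran from -0.17 to 0.04 around -0.06 (adjusted p = 0.430). Fbxo30, known as MUSA1 and held down by BMP signalling in muscle, was low at 6.84 to 10.6 CPM over the 16 libraries. Its log2 fold change was -0.02 (interval -0.21 to 0.18, adjusted p = 0.932), with 6 of 8 IF libraries above the AL median in plain CPM.

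Mstn held 31.8 to 47.1 CPM (median 40.7) under AL and 36.1 to 82.1 CPM (median 55.4) under IF in mice 1-16. The ranges overlapped through a single library: 7 IF mice lay above every AL mouse, and IF mouse 12 lay within the AL range. Mstn rose by 0.45 on the log2 scale (SE 0.13, adjusted p = 0.0219). The call was lost under several alternatives, among them without the expression filter (0.45, adjusted p = 0.0627) and with 7 mice per group (0.42, adjusted p above 0.05).

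Eif4ebp1 held 48.2 to 84.9 CPM (median 69.2) under AL and 72.5 to 131 CPM (median 109) under IF. All IF libraries lay above the AL median and 7 of 8 above every AL library, IF mouse 11 being the exception. Eif4ebp1 rose by 0.55 on the log2 scale (SE 0.11, adjusted p = 0.00154). Without the 4 adipocyte-rich IF libraries the difference was 0.45 and the call was lost (adjusted p = 0.0503).

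In all, 6 of 9 members were called in muscle of mice 1-16, each higher under IF, where 23% of the 15025 genes tested were called, 11.5% higher and 11.6% lower. In 4 of 9 members every IF library lay above every AL library, which held for 2.89% of the genes tested, and the groups stood apart in either direction in 4.17%. The median log2 fold change was 0.55 over the members and 0.01 over all genes. The members were chosen with earlier results of these data known, so these shares are descriptions only. The panels of muscle levels show every library behind these values, beside those of mice 25-40.

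**Figure D1:**
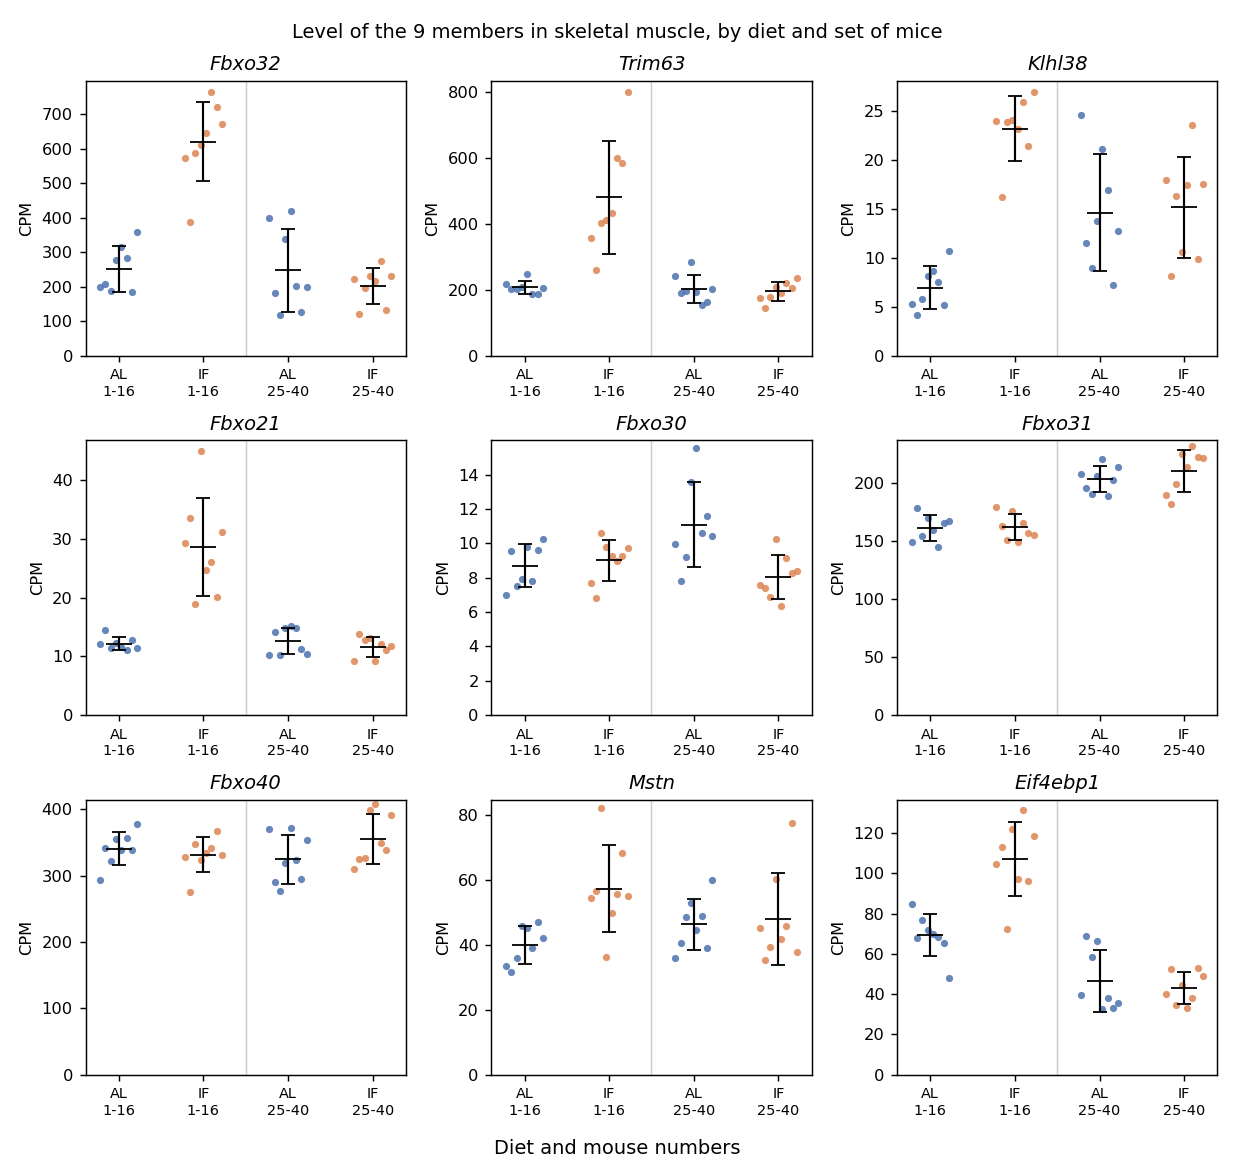
Level of each member in skeletal muscle (vertical axis, CPM) by diet and mouse numbers (horizontal axis), with 1 point per mouse and bars for the mean and SD of 8 mice. Fbxo32, Trim63, Klhl38 and Fbxo21 separate the diets without overlap in mice 1-16 and overlap in mice 25-40.

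Markers of other cells moved with diet in the same muscle libraries. Of 6 adipocyte markers 5 rose in muscle of mice 1-16. Their summed level ran from 162 to 728 CPM under AL and from 408 to 3736 CPM under IF, with Fabp4 the most abundant and none at 0 in a group, and IF mice 12, 10, 9 and 16 held the highest sums. Of 4 tendon markers 3 fell, and their sum ran from 13.6 to 49.8 CPM under AL and from 6.39 to 20.2 CPM under IF, with Fmod the most abundant. Of 7 fibre markers 3 fell (Ckm, Mb and Mylpf), and their sum, led by Acta1, had a median of 122900 CPM under AL and 116800 CPM under IF. Fewer cells of a type and less RNA per cell cannot be told apart in these samples. The part of these cell types in the members' results was not tested beyond leaving out the 4 libraries, after which Fbxo32 differed by 1.37, Trim63 by 1.21, Klhl38 by 1.70 and Mstn by 0.61, all called.

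Other marker lists held fewer called genes. None of 6 slow fibre markers was called by edgeR (0 at an unadjusted p under 0.05, 0 by DESeq2), while their median log2 fold change was -1.08 and their sum ran from 37.3 to 2537 CPM in AL libraries. In muscle of mice 1-16, 2 of 5 fibroblast markers, 1 of 5 macrophage markers and 1 of 5 endothelial markers fell. edgeR called none of the 5 erythrocyte markers (unadjusted 0, DESeq2 0), of the 4 satellite cell markers (unadjusted 2, DESeq2 1), of the 4 Schwann cell markers (unadjusted 1, DESeq2 1), of the 1 hepatocyte marker tested (unadjusted 1, DESeq2 1) or of the 1 neuronal marker tested (unadjusted 0, DESeq2 0). Over all 15025 genes, 5309 had an unadjusted p under 0.05 and DESeq2 called 3825.

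Muscle of mice 25-40 differed from this picture. No member was called by edgeR there (0 by DESeq2), against 0.00653% of 15308 genes, which is the single gene Rn18s-rs5, named after its value was seen. At an unadjusted p under 0.05, 2 of 9 members (Fbxo30 and Fbxo40) and 1644 of the 15308 genes passed. The groups of every member overlapped, and in 0.0915% of genes they did not (0.0849% with IF below). Fbxo32 ran from 119 to 419.9 CPM under AL (median 201.5) and from 122 to 276 CPM under IF (median 219). The AL group was split, with mice 25, 28 and 29 at 338 CPM or more and mice 27 and 31 at 119 and 126.5 CPM. The log2 fold change was -0.21 with an interval from -0.76 to 0.35. Trim63 held 153 to 283 CPM under AL and 145 to 235 CPM under IF (interval -0.22 to 0.25). Klhl38 held 7.26 to 24.6 CPM under AL and 8.10 to 23.5 CPM under IF (interval -0.40 to 0.67). Fbxo21, at 9.15 to 15.1 CPM over all 16 libraries, had the interval -0.24 to 0.15. For Mstn and Eif4ebp1 the intervals were -0.17 to 0.41 and -0.36 to 0.27. Fbxo30 was lower under IF in all 8 libraries when set against the AL median (log2 fold change -0.39, adjusted p = 0.292), and Fbxo40 was above it in 7 of 8 (0.20, adjusted p = 0.431). The intervals are wide for Fbxo32 and Klhl38, and a p above the threshold does not show that the diets were alike. edgeR called none of the 5 endothelial markers there (unadjusted 5, DESeq2 1), with a median log2 fold change of -0.38. It also called none of the 7 fibre markers (unadjusted 2, DESeq2 0), with a median of 0.11. The part of these markers in the result was not tested.

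The difference between the sets was tested directly, as the diet difference in mice 25-40 minus that in mice 1-16. It was called for 5 of 9 members, where 14.2% of 16346 genes were called, 7.38% higher and 6.77% lower. The diet difference was smaller in mice 25-40 by 1.42 on the log2 scale for Fbxo32 (SE 0.33, adjusted p = 0.00436). It was smaller by 1.11 for Trim63 (SE 0.22, adjusted p = 8.33e-04). For Klhl38 it was smaller by 1.51 (SE 0.33, adjusted p = 0.00240). For Fbxo21 it was smaller by 1.18 (SE 0.16, adjusted p = 1.37e-05). Fbxo40 differed the other way by 0.33 (SE 0.11, adjusted p = 0.0405), a call lost without the expression filter (adjusted p = 0.0534). Eif4ebp1 missed the threshold with -0.58 (interval -0.97 to -0.18, adjusted p = 0.0537) and passed it by DESeq2 (adjusted p = 0.0261). Fbxo30 had -0.36 (interval -0.66 to -0.05, adjusted p = 0.124), Fbxo31 0.20 (interval 0.03 to 0.38, adjusted p = 0.116) and Mstn -0.31 (interval -0.72 to 0.09).

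Markers of other cells differed between the sets in the same contrast. Of 6 adipocyte markers 4 responded lower in mice 25-40 (median -2.53), and their summed level there, led by Fabp4 with none at 0, ran from 223 to 1097 CPM under AL and from 121 to 900 CPM under IF. Of 5 endothelial markers 2 also responded lower, while 2 of 4 tendon markers and 2 of 7 fibre markers responded higher. Their part in the result was not tested, and the libraries rich in adipocyte markers were not left out of this comparison.

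The AL levels of the sets were not tested against each other. Fbxo31 in AL muscle had a mean of 161 CPM in mice 1-16 and 203 CPM in mice 25-40 with no overlap. Klhl38 had AL means of 6.94 and 14.6 CPM, with overlapping ranges. The other members overlapped too, among them Fbxo32 at 252 and 248 CPM and Trim63 at 208 and 204 CPM.

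**Figure D2:**
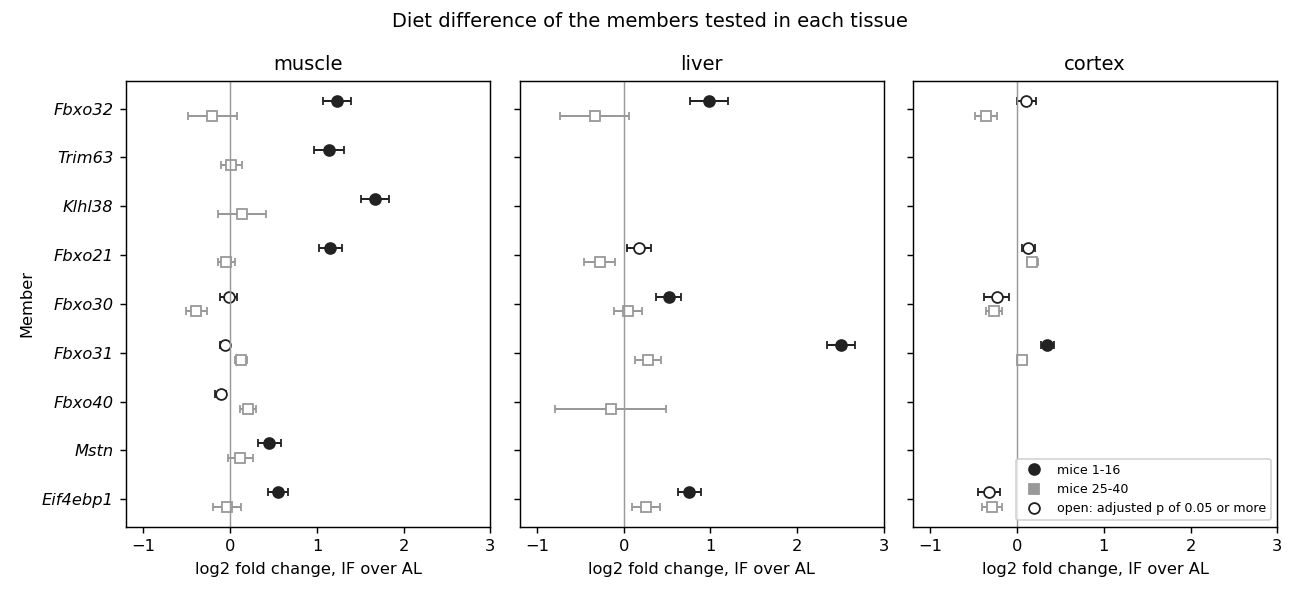
Log2 fold change of IF over AL (horizontal axis) for each member tested in muscle, liver and cortex (vertical axis), with bars of 1 SE, in mice 1-16 (circles) and mice 25-40 (squares), filled where the adjusted p is under 0.05. In muscle of mice 1-16 Klhl38 lies furthest right at 1.67, and in liver Fbxo31 at 2.50.

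In liver of mice 1-16, 5 members were abundant enough to test and 4 were called, all higher under IF, where 44.6% of 16204 genes were called. Fbxo31 had the largest diet difference among the members abundant enough to test in any tissue. It held 30.1 to 45.5 CPM (median 36.5) under AL and 125 to 394 CPM (median 207) under IF, with IF mouse 13 highest and mouse 10 lowest. The groups stood far apart, and the rise was 2.50 on the log2 scale (SE 0.16, adjusted p = 2.94e-11), a 5.67-fold difference. Eif4ebp1 held 23.0 to 36.2 CPM under AL and 37.8 to 64.0 CPM under IF, again without overlap. It rose by 0.76 (SE 0.13, adjusted p = 4.76e-05). In 2 of 5 members every IF library lay above every AL library, which held for 8.97% of the genes tested in liver, while 5.58% had every IF library below.

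Fbxo32 was low in liver, at 0.842 to 2.78 CPM under AL with IF libraries at a median of 4.22 CPM and at most 4.85 CPM, and 7 of 8 IF libraries lay above every AL library. It rose by 0.98 (SE 0.22, adjusted p = 9.37e-04). Fbxo30 held 4.35 to 7.40 CPM under AL and 7.07 to 11.5 CPM under IF, with 6 of 8 IF libraries above every AL library. It rose by 0.52 (SE 0.15, adjusted p = 0.00525). Fbxo40 had too few counts for a test in these livers, with 160 reads under AL and 37 under IF and 6 of 8 IF libraries below every AL library. Fbxo21, at 53.1 to 97.5 CPM under AL and 60.9 to 125 CPM under IF, had a log2 fold change of 0.18 (interval -0.09 to 0.45, adjusted p = 0.298), with 6 of 8 IF libraries above the AL median. Of 5 erythrocyte markers 3 rose in these livers, with a sum, led by Hba-a1, of 362 to 956 CPM under AL and 667 to 6879 CPM under IF, highest in IF mice 9 and 10. Also 3 of 5 endothelial markers and 3 of 5 fibroblast markers rose. Their part in the result was not tested further. Without IF mice 9 and 10 the 4 members stayed called, Fbxo31 at 2.61.

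In liver of mice 25-40, 919 of 15938 genes had an unadjusted p under 0.05. No member of 6 tested was called by edgeR there (0 at this unadjusted p, 0 by DESeq2), against a background of 0%. The groups of all 6 overlapped, and in 0.0188% of genes they did not (0.0125% with IF above). Fbxo31 held 43.6 to 72.6 CPM under AL and 49.0 to 107 CPM under IF, with mouse 38 highest and 4 of 8 IF libraries above every AL library. Its log2 fold change was 0.28 (interval -0.02 to 0.57). The difference between the sets in liver was called for 2 of 6 members, where 23.7% of 17658 genes were called. Fbxo31 responded less in mice 25-40 by 2.19 (SE 0.23, adjusted p = 6.66e-09) and Fbxo32 by 1.29 (SE 0.46, adjusted p = 0.0393). In the same comparison 2 of 5 erythrocyte, 2 of 5 endothelial, 1 of 5 fibroblast and 1 of 5 hepatocyte markers were called, and their part in the result was not tested.

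In cortex of mice 1-16 only Fbxo31 was called among 5 members tested, where 7.21% of 18462 genes were called, 3.79% higher and 3.43% lower. The count of called genes depends on the processing: 1332 here, 2260 by DESeq2 and 498 with 7 mice per group. Fbxo31 held 154 to 221 CPM under AL and 213.5 to 262 CPM under IF, and all 8 IF libraries lay above the AL median. It rose by 0.35 (SE 0.08, adjusted p = 0.0108). With the library of AL mouse 1 included, the difference was 0.29, the adjusted p was 0.0668, 294 genes were called and 0 members were called by edgeR. Eif4ebp1 was lower under IF in 7 of 8 libraries against the AL median, with a log2 fold change of -0.32 (interval -0.57 to -0.08, adjusted p = 0.119). Fbxo32 had 0.10 (interval -0.11 to 0.32), Fbxo21 0.13 (interval -0.02 to 0.28) and Fbxo30 -0.23 (interval -0.51 to 0.05). edgeR called none of the 5 endothelial markers in these libraries (unadjusted 3, DESeq2 3). Over all 18462 genes, 4400 had an unadjusted p under 0.05. The endothelial sum ran from 57.5 to 69.9 CPM under AL and from 44.4 to 60.4 CPM under IF. DESeq2 also called 1 of 4 fibroblast and 1 of 3 Schwann cell markers, where edgeR called none. The part of these markers in the result was not tested.

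In cortex of mice 25-40 edgeR called 0 of 5 members, with 4 at an unadjusted p under 0.05 and 0 by DESeq2. The background at the adjusted p was 0.0109% of 18403 genes, which is mt-Atp6 and Gm11263, named after their values were seen. At an unadjusted p under 0.05, 2069 of these 18403 genes passed. Fbxo32 had -0.36 (adjusted p = 0.355), Eif4ebp1 -0.29 (adjusted p = 0.388) and Fbxo30 -0.26 (adjusted p = 0.371), with at most 1 of 8 IF libraries above the AL median in each. Fbxo21 had 0.18 (adjusted p = 0.382), with all 8 IF libraries above it. For the difference between the sets in cortex edgeR called 0 of 6 members (2 at an unadjusted p under 0.05, 1 by DESeq2), against 2.03% of 19547 genes, 1.06% higher and 0.967% lower. Of these 19547 genes, 3007 passed at the unadjusted p. Fbxo31 stood nearest with -0.29 (interval -0.46 to -0.12, adjusted p = 0.0757).

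**Figure D3:**
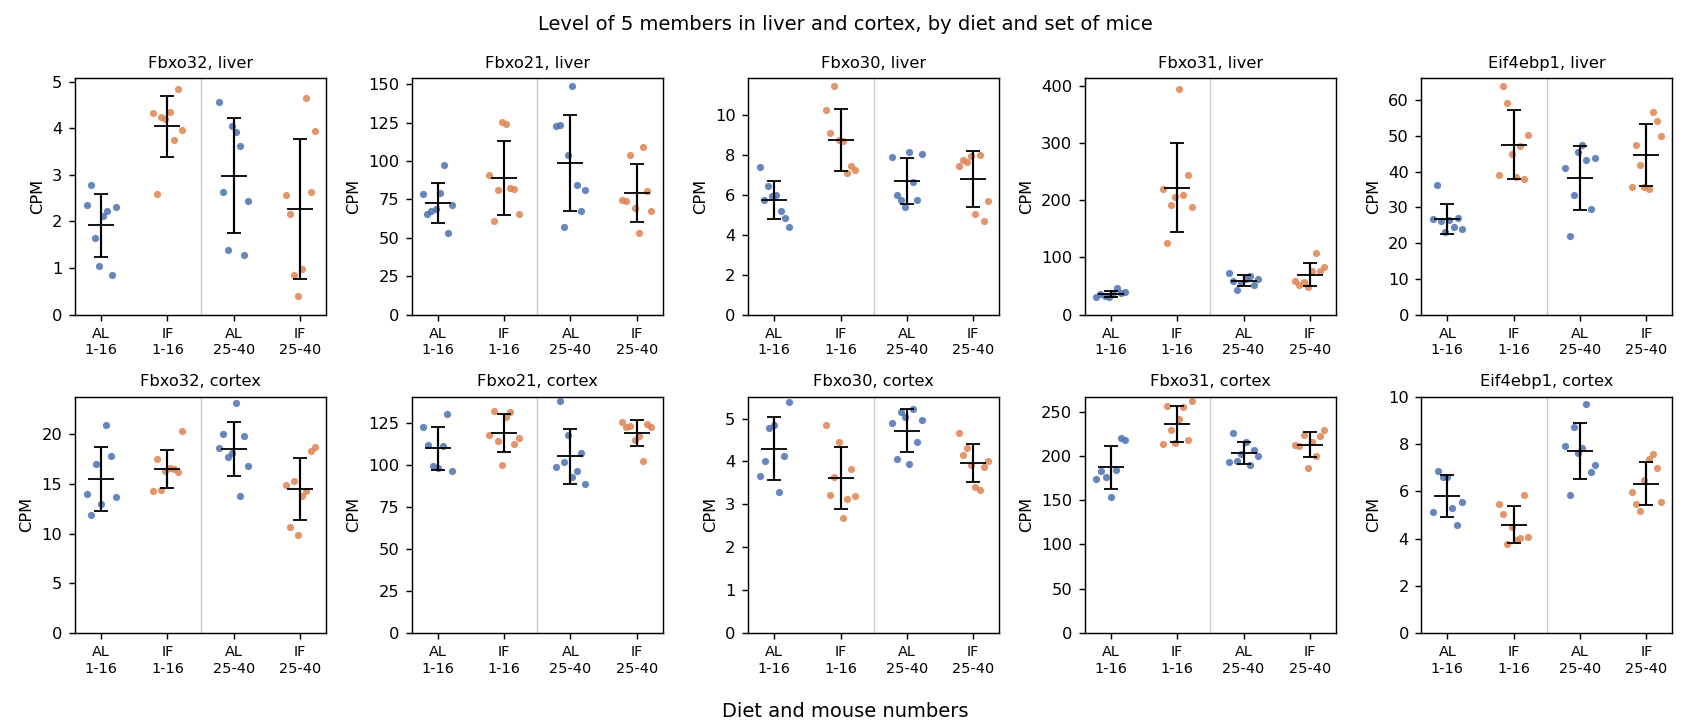
Level of 5 members in liver (upper row) and cortex (lower row), in CPM on the vertical axis, by diet and mouse numbers on the horizontal axis, with 1 point per mouse and bars for mean and SD. Fbxo31 in liver of mice 1-16 runs from 30.1 to 45.5 CPM under AL and from 125 to 394 CPM under IF.

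Whether muscle responded differently from the other tissues was tested in each mouse set, as the diet difference in muscle minus that in the other tissue. Against liver in mice 1-16, 2 of the 5 members that had enough counts for a test in each of these tissues were called, where 30.3% of 18222 genes were called. Fbxo21 responded more in muscle by 0.96 (SE 0.19, adjusted p = 4.80e-04), and Fbxo31 less by 2.52 (SE 0.18, adjusted p = 2.46e-09). For Fbxo32, which rose in muscle and in liver, the difference was 0.24 (interval -0.14 to 0.63), and for Eif4ebp1 -0.15 (interval -0.52 to 0.21). Fbxo30 missed the threshold with -0.51 (interval -0.9 to -0.13, adjusted p = 0.0505) and was called by DESeq2.

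Against cortex in mice 1-16, 4 of the same 5 members were called, where 9.91% of 19617 genes were called, 5.62% higher and 4.29% lower. This balance turned with RLE size factors (870 higher, 1096 lower) and DESeq2 (1167 higher, 1441 lower). Muscle responded more for Fbxo32 by 1.12 (SE 0.19, adjusted p = 0.00130), and more for Fbxo21 by 1.02 (SE 0.15, adjusted p = 4.92e-04). Eif4ebp1 differed by 0.96 (SE 0.14, adjusted p = 4.72e-04) and Fbxo31 by -0.40 (SE 0.10, adjusted p = 0.0132). Trim63, Klhl38, Fbxo40 and Mstn had too few counts in liver and cortex of mice 1-16 for these differences to be read. Cell markers were called in the same fits, among them 3 of 6 adipocyte, 2 of 5 erythrocyte, 2 of 5 endothelial, 2 of 5 macrophage and 2 of 5 fibroblast markers against liver, and 3 of 4 tendon and 1 of 5 endothelial markers against cortex. Their part in these results was not tested either. In mice 25-40 edgeR called 0 of the same 5 members against liver (1, Fbxo30, at an unadjusted p under 0.05, 0 by DESeq2, background 0%). Against cortex it also called 0 of 5 (unadjusted 0, DESeq2 0), where 0.0051% of genes were called, the 1 gene Syt7, named after its value was seen. At an unadjusted p under 0.05, 835 of 18311 genes passed against liver and 1829 of 19606 against cortex.

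The wider pathways were read from 5 lists, and each is described by its counts. The lists were chosen with earlier results of these data known, so their shares and ranks are not independent support. These are to be read against all genes in muscle of mice 1-16, of which 23% were called, 11.5% higher and 11.6% lower, and a list near these shares says nothing of its own. Of 40 other ubiquitin genes of muscle, 10 rose, 9 fell and 21 were not called in muscle of mice 1-16, with a median log2 fold change of 0.04 beside 0.01 over all genes. The largest changes were mixed in direction. Kbtbd13, a cullin adaptor of muscle, fell from 18.4 to 23.8 CPM under AL to 10.2 to 14.4 CPM under IF (-0.78, adjusted p = 7.14e-07), with no overlap. Zfand5, which encodes an activator of the proteasome, rose from 178 to 264 CPM to 300.2 to 405 CPM (0.63, adjusted p = 5.00e-06), also with no overlap. The ligase genes Cblb and Siah1a rose by 0.66 and 0.39, while Trim72 and Trim54, a close relative of Trim63, fell by 0.54 and 0.37.

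Of 32 genes of myostatin and activin signalling tested in muscle, 5 rose, 4 fell and 23 were not called, which is near the share over all genes. Their median log2 fold change was -0.08, beside 0.01 over all genes. Among the ligands, Mstn is given above, Inhbb rose from a median of 0.954 to 1.58 CPM (0.96, adjusted p = 0.0300), and Gdf11, the closest relative of Mstn, fell from 14.3 to 7.02 CPM (-0.93, adjusted p = 0.0117). Among the receptors, Acvr1b rose by 0.41 with no overlap (39.5 to 47.2 CPM under AL, 48.5 to 73.7 CPM under IF), Bmpr1b rose by 0.38, and the low Acvr1c rose by 2.36 from a median of 0.234 to 1.54 CPM. Without the 4 adipocyte-rich libraries the calls of Acvr1c (1.30, adjusted p = 0.0604) and Inhbb (0.36, adjusted p = 0.505) were lost.

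Of 30 genes of the mTORC1 and translation list tested, 7 rose, 6 fell and 17 were not called, with a median of 0.01. The list includes the member Eif4ebp1, given above, which is 1 of the 7 that rose. Ddit4 rose by 2.88 (adjusted p = 1.41e-05), from 4.46 to 7.01 CPM under AL to 13.8 to 79.3 CPM under IF, and Deptor rose by 0.86 from 31.6 to 50.4 CPM to 63.4 to 99.8 CPM, each without overlap. Castor1 rose by 0.85 and Sesn1 by 0.70. The helicase gene Eif4a2 rose by 0.41.

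The list of FoxO and glucocorticoid regulators held the largest share of called genes: 16 of 28 rose, 2 fell and 10 were not called, with a median of 0.37. Pdk4, which encodes a kinase that shuts pyruvate out of oxidation, rose by 2.58 (adjusted p = 1.99e-06), from 112.5 to 330.4 CPM under AL to 776 to 1719 CPM under IF. Per1 rose by 2.04, Tsc22d3 by 1.28 and Sgk1 by 1.27, each without overlap, and all are known to respond to glucocorticoids. Cebpd rose by 2.05 and Hif3a by 1.85. Foxo1 itself rose by 0.87 and Foxo3 by 0.43, and Foxo4 and Foxo6 fell by 0.25 and 0.91; these 4 were named after their values were seen.

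Of 16 denervation genes tested, 5 rose, 3 fell and 8 were not called, with a median of -0.01. Gadd45a rose by 1.16 without overlap (9.08 to 16.1 CPM under AL, 22.3 to 41.3 CPM under IF), Musk and Myog by 0.52 each and Hdac4 by 0.48, whereas Myod1 fell by 0.60 and Ncam1 by 0.49. The calls of Musk, Myog, Ncam1 and Hdac4 were lost under at least 1 alternative, Myog without the adipocyte-rich libraries at 0.29.

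In muscle of mice 25-40 edgeR called 0 genes on each of these lists. At an unadjusted p under 0.05 the counts were 1 of 40 ubiquitin genes, 2 of 32 myostatin and activin genes, 5 of 30 mTORC1 genes, 5 of 27 FoxO and glucocorticoid genes and 1 of 16 denervation genes. DESeq2 called 0, 0, 1, 1 and 0 of them. Over all 15308 genes, 1644 passed at the unadjusted p and DESeq2 called 91. The difference between the sets in muscle was called for 10 of 40, 2 of 33, 11 of 30, 14 of 28 and 3 of 16 genes of the lists, where 14.2% of all genes were called. It was -2.49 for Ddit4 (adjusted p = 1.22e-04), -3.08 for Pdk4 (adjusted p = 0.00372) and -1.08 for Gadd45a (adjusted p = 2.27e-04). Some named list genes already stood apart between the sets under AL, in both directions, which was not tested. Per1 held 8.43 to 22.7 CPM in AL muscle of mice 1-16 and 41.6 to 97.0 CPM in that of mice 25-40. Sesn1 held 7.76 to 15.1 and 23.2 to 42.7 CPM, and Trim54 373 to 524 and 263 to 362 CPM.

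In liver of mice 1-16 the lists gave 9 higher and 10 lower of 34 ubiquitin genes, 7 and 6 of 28 myostatin and activin genes, 10 and 7 of 31 mTORC1 genes, 17 and 3 of 27 FoxO and glucocorticoid genes, and 2 and 1 of 8 denervation genes, where 23.5% of all genes were higher and 21.1% lower, a balance that turned with RLE size factors (3593 higher, 3624 lower) and DESeq2 (3764 higher, 3783 lower). In cortex they gave 2 and 0 of 36, 2 and 4 of 35, 6 and 2 of 31, 7 and 0 of 29, and 0 and 1 of 11, where 3.79% of all genes were higher and 3.43% lower. Several of these counts lie near the share over all genes and say nothing of the lists. The FoxO and glucocorticoid list had the highest median of the 5 lists in each tissue, at 0.64 in liver and 0.10 in cortex, beside 0.06 and -0.00 over all genes.

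Members also varied among mice of the same group. After the mean of each of the 4 muscle groups was taken out of log2 CPM, the Pearson correlation (r) over 32 muscle libraries was computed for the 8863 genes with a mean of at least 5 CPM. The gene most like Fbxo32 was Klhl38, at r = 0.856 over all libraries, 0.863 in the 16 of mice 1-16 and 0.854 in the 16 of mice 25-40. Among those after it were Rabgef1 (0.781), Mb21d2 (0.762) and Zcchc7 (0.722). For Trim63 the list was Las1l (0.743), Cwc22 (0.720), Foxo1 (0.709), Zfp869 (0.703) and Ppp1r3c (0.683). These differed by set, as for Ppp1r3c with 0.854 in mice 1-16 and 0.345 in mice 25-40, and for Zfp869 with 0.882 and 0.442. For Fbxo40 it was Camsap1 (0.801), Usp4, Ddx31, Dync1li1 and Mtfr1l (0.714), and for Mstn it was Mbnl1 (0.811), Dpp8, Homer1, Abcc1 and Abca8b (0.778).

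Within the set, Fbxo32 went with Fbxo40 (r = 0.697) and Trim63 (0.524). Fbxo32 and Fbxo21 had r = -0.03 over all libraries, -0.305 in mice 1-16 and 0.164 in mice 25-40. For Fbxo32 and Mstn these were -0.001, 0.201 and -0.107. Eif4ebp1 ran against Fbxo40 (-0.467). Fbxo21 and Mstn had r = -0.762 in mice 1-16 and -0.01 in mice 25-40. The libraries of a group share diet and set, and the values are descriptions.

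Fbxo32 (ENSMUSG00000022358) and Klhl38 (ENSMUSG00000022357), the most alike members, lie near each other on the minus strand of chromosome 15, at 58039275 to 58078328 and 58177969 to 58187565 in GRCm39. By these coordinates the gap between them is 99640 bases and holds no whole gene. The GENCODE annotation ends Fbxo32 at 58078741 and starts Klhl38 at 58163791, which leaves a smaller gap. The long noncoding gene Gm15943 spans it on the opposite strand, from 58077871 to 58187449, and shares 435 exon bases with Fbxo32 and 2199 of 9095 with Klhl38 in the GENCODE annotation. The count table gives Klhl38 a length of 2212 bases, so the share that bears on its counts may be another. Gm15943 rose in muscle of mice 1-16 from 0.621 to 3.33 CPM under AL to 5.94 to 10.2 CPM under IF (1.76, SE 0.22, adjusted p = 1.45e-05). The libraries were directional and were counted with featureCounts, but the strand setting of the counting and its handling of reads that map to several places are not given, so the counts of these overlapping antisense genes are uncertain.

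Of 12 other genes tested within 500 kb of the pair, 2 were called, no more than the 23% over all genes. Gm15943 rose and Zhx2 fell (-0.53, SE 0.07, adjusted p = 1.47e-05). Zhx2 held 38.2 to 51.0 CPM under AL and 27.4 to 36.5 CPM under IF. The remaining 10 were not called, among them Wdyhv1 beside Fbxo32 (0.40, adjusted p = 0.0965) and Fam91a1 (0.33, adjusted p = 0.0566). The map of these genes places the differences along the chromosome.

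**Figure D4:**
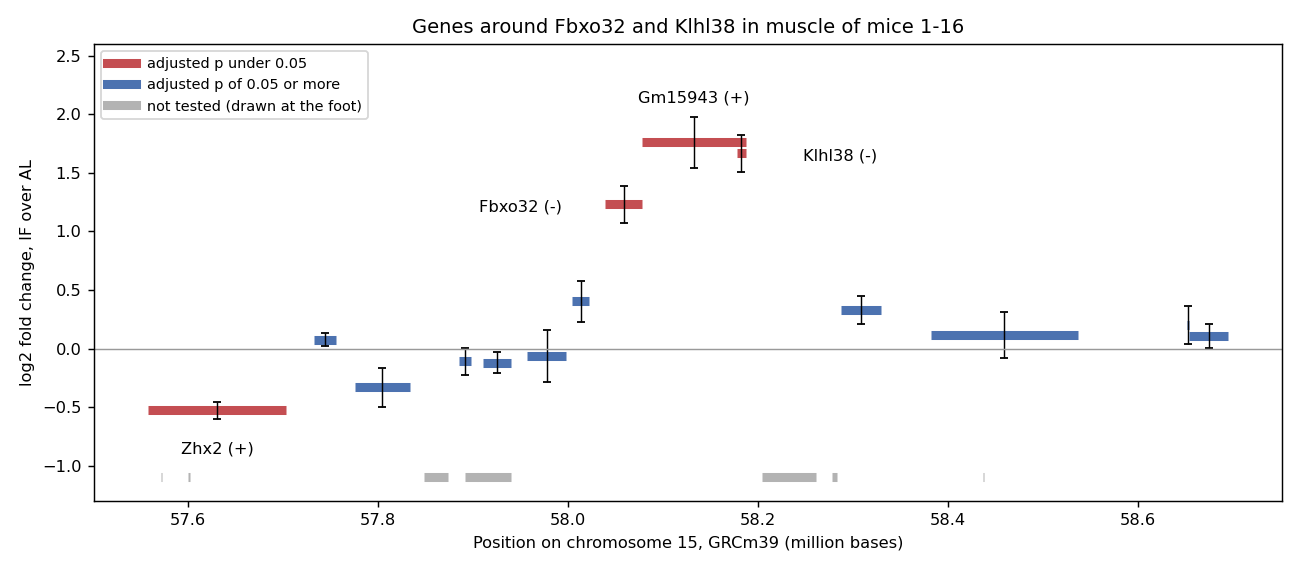
Genes within 500 kb of Fbxo32 and Klhl38 by position on chromosome 15 (horizontal axis, Mb) and log2 fold change of IF over AL in muscle of mice 1-16 (vertical axis), with bars of 1 SE. Fbxo32 (1.23), Klhl38 (1.67) and the antisense Gm15943 (1.76) stand above their neighbours, and Zhx2 (-0.53) below.

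The other members lie apart in GRCm39. Trim63 (ENSMUSG00000028834) is on chromosome 4 at 134042431 to 134056940, Fbxo21 (ENSMUSG00000032898) on chromosome 5 at 118114795 to 118148266 and Fbxo30 (ENSMUSG00000047648) on chromosome 10 at 11157074 to 11173796. Fbxo31 (ENSMUSG00000052934) is on chromosome 8 at 122276179 to 122305545 and Fbxo40 (ENSMUSG00000047746) on chromosome 16 at 36783822 to 36810829. Mstn (ENSMUSG00000026100) is on chromosome 1 at 53100799 to 53107238 and Eif4ebp1 (ENSMUSG00000031490) on chromosome 8 at 27750357 to 27766702. Among these only Eif4ebp1 overlaps another annotated gene, the antisense noncoding Gm63993.

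Promoter windows of RefSeq (build GRCm38.p6, 250 bases before to 50 after a gene's start) were found for 6 of 9 members, in 7 windows, and not for Fbxo32, Klhl38 and Eif4ebp1. Both strands were searched for the core letters known to be bound by FoxO factors, GTAAACA. The myogenic E box was read as CANCTG, where N is any base. The usual TATA box was read as TATAAA. A glucocorticoid receptor element of 15 positions, some of them open to any base, was searched too, and no member window held an exact match. No mismatch was allowed, so the search does not show that such an element is absent. The Trim63 window holds, directly before its FoxO letters, a stretch that differs from the searched element only at the first position. Of 32851 windows in the table, 3.65% held the FoxO letters, 0.0396% the glucocorticoid receptor element, 51.4% the E box and 13.6% the TATA box. The 250 upstream bases are shown for the 3 of the 5 members far higher in muscle that have a window, in lower case with matches to these motifs in capitals. Each matched GRCm39 at 1 place: Trim63 at chr4:134042181-134042430 (plus strand), Mstn at chr1:53100549-53100798 (plus strand) and the upstream window of Fbxo40 at chr16:36810830-36811079 (minus strand).
Trim63: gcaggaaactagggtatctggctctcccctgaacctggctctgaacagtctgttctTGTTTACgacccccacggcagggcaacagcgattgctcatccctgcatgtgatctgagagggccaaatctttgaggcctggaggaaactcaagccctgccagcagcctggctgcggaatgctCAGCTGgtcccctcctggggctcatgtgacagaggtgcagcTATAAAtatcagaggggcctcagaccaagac
Mstn: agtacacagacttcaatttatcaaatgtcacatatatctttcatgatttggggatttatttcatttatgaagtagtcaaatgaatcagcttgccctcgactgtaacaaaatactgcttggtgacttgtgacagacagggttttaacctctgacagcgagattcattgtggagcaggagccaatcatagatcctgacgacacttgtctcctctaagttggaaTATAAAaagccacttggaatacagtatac
Fbxo40: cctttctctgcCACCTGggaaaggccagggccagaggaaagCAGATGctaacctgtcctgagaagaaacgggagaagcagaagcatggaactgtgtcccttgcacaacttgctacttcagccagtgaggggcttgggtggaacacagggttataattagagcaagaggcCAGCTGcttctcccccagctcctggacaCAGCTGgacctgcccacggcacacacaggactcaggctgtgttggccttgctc

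Trim63 held 1 match each of the FoxO letters (here on the reverse strand, as TGTTTAC), the E box and the TATA box. Mstn held 1 TATA box match, and Fbxo40 held 4 E box matches in this window and 2 in its second window. A match describes the letters and is not a binding site.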

How the data were processed

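The deposited counts were made by the authors with CASAVA, HISAT2 and featureCounts on the mm39 genome, and CPM was computed here from each library's total. The cortex library of AL mouse 1 was left out. Genes were kept by filterByExpr (minimum count 10, minimum total count 15) and tested with edgeR quasi-likelihood fits on TMM-scaled counts for each tissue and set of mice, at an adjusted p under 0.05. Differences between sets and between tissues were interaction terms, the latter with mouse as a block. Alternatives were RLE size factors, DESeq2, no filter beyond 1 count, a replicate block, 7 mice per group and leaving out single muscle libraries. For 7 mice per group, AL mouse 2 and IF mouse 10 were left out of mice 1-16. In cortex AL mouse 1 was out as well, so the AL group there was smaller still. Members and the 5 gene lists were chosen with earlier results of these data known. Named list genes are, per list, up to 6 called genes with the largest difference and a mean of at least 1 CPM in muscle of mice 1-16. Likeness names the 5 most correlated genes for Fbxo32, Trim63, Fbxo40 and Mstn, less 1 that is not reported. Tools were R 4.3.3, edgeR 4.0.16, limma 3.58.1, DESeq2 1.42.0, Python 3.11.15, numpy 2.4.6, pandas 2.3.3 and matplotlib 3.10.9.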

Additional observations from a re-analysis of the deposited data

Results flagged for a closer look

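In 4 groups a single library stood apart from the rest: Fbxo21 in muscle of AL mouse 2 (14.5 CPM, the next at 12.7), Fbxo21 in cortex of IF mouse 38 (102 CPM, the next at 115), Fbxo31 in liver of IF mouse 13 (394 CPM, the next at 244.5) and Eif4ebp1 in liver of AL mouse 2 (36.2 CPM, the next at 27.1). Of 76 groups tested, about 1 in 20 would be picked out by chance.

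The diet difference was not the same in the sets of mice, as mice 25-40 minus mice 1-16. In muscle this was -1.42 for Fbxo32, -1.11 for Trim63, -1.51 for Klhl38, -1.18 for Fbxo21 and 0.33 for Fbxo40. In liver it was -1.29 for Fbxo32 and -2.19 for Fbxo31. The diet difference was also not the same in muscle as in another tissue of mice 1-16. Muscle minus liver was 0.96 for Fbxo21 and -2.52 for Fbxo31. Muscle minus cortex was 1.12 for Fbxo32, 1.02 for Fbxo21, -0.40 for Fbxo31 and 0.96 for Eif4ebp1. The fits also passed the threshold with 2.15 for Fbxo40 against liver and 2.13 for Klhl38 against cortex, but counts in the other tissue were too low for these values to be read as differences.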

How the results depend on the processing

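Of 124 gene results, 111 kept their call under each alternative run for them, which were fewer for the differences between sets and tissues, and single libraries were left out in muscle only. No scaling moved the median difference by over 0.1. At this depth Trim63, Klhl38, Fbxo40 and Mstn had too few counts in liver and cortex of mice 1-16 to be tested there. RLE size factors turned the split of called genes for muscle against cortex in mice 1-16 from 1103 higher and 841 lower to 870 and 1096, and DESeq2 gave 1167 and 1441; the cause was not tested. Leaving out 1 muscle library at a time gave 2933 to 3740 called genes in mice 1-16 and 1 to 3 in mice 25-40, with 6 and 0 members called each time.

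With DESeq2 the called genes went from 1 to 91 in muscle of mice 25-40, from 0 to 6 in liver of mice 25-40, from 1332 to 2260 in cortex of mice 1-16 and from 2 to 73 in cortex of mice 25-40. It also gave 706 for the set difference in cortex (397 by edgeR), 5 for muscle against liver in mice 25-40 (0 by edgeR) and 46 for muscle against cortex in mice 25-40 (1 by edgeR). Eif4ebp1 for the set difference in muscle (adjusted p = 0.0261), Fbxo31 for that in cortex (0.0328) and Fbxo30 for muscle against liver in mice 1-16 (0.0420) were called only by DESeq2. With no filter beyond 1 count, muscle of mice 25-40 had 5 called genes and the set difference in cortex 220. The calls of Mstn (adjusted p = 0.0627), Inhbb, Myog (0.0577), Hdac4 (0.0734) and Fbxo40 for the set difference in muscle (0.0534) were lost. With 7 mice per group cortex of mice 1-16 had 498 called genes, and the calls of Mstn (0.42), Inhbb (0.85), Musk (0.52) and Myog (0.51) were lost. With the omitted library of AL mouse 1 cortex of mice 1-16 had 294 called genes and 0 called members (Fbxo31 0.29, adjusted p = 0.0668).

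Replicate numbers do not pair the mice, as samples of the same number had correlations of -0.262 to 0.457 and were each other's best match in 0 to 2 of their pairs. With replicate as a block, cortex of mice 1-16 had 382 called genes and cortex of mice 25-40 had 0, and Mstn (0.0689) and Myog (0.0709) in muscle were not called.

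An alternative chosen after seeing the data left out the 4 adipocyte-rich IF muscle libraries: 3110 genes were called, and the calls of Eif4ebp1 (0.45), Acvr1c (1.30), Inhbb (0.36), Myog (0.29) and Hdac4 (0.42) were lost. Another, also chosen after seeing the data, left out the 2 haemoglobin-rich IF liver libraries: 7011 genes were called. Leaving out 1 library at a time gave 0.83 to 1.12 for Inhbb, 0.43 to 0.62 for Musk, 0.43 to 0.60 for Myog, -0.55 to -0.42 for Ncam1 and 0.39 to 0.55 for Hdac4, each with some calls lost.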
